A study of Mus musculus with 6 samples.

Results

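The genes of fatty acid oxidation and the targets of PPARA were examined in hepatic tissue of ARSB-null and control mice. The gene group was a list of 33 genes, of which 31 were named by a probe set with a single gene symbol, among 19938 genes so named on the array. Acsl1 and Ucp2 were not named here, and the brightest probe set stood for Hadhb, the only member with 2. The ARSB-null group was 3 liver samples of homozygous male mice lacking arylsulfatase B (ARSB), and the control group was 3 liver samples of male C57BL/6J mice. All mice were on the C57BL/6J background, 12 weeks of age and without treatment. Each sample had 1 array, and the labels number those of both groups 4, 5 and 6. The labels do not state that each sample is a separate mouse, and a sample is called a liver below. ARSB is a lysosomal sulfatase that takes part in the breakdown of sulfated glycosaminoglycans. The null mice came from a homozygous colony, and the sources used here do not say whether the controls were littermates, so genotype and colony cannot be told apart. The mice ate standard chow per the methods, and the sources used here give neither the hour of death nor whether food had been withdrawn.

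PPARA is a nuclear receptor of hepatocytes that is activated by fatty acids. Paired with a retinoid X receptor, it binds a direct repeat of AGGTCA with 1 base between the copies, and in fasting it drives the genes that take up, activate and burn fatty acids in mitochondria and peroxisomes. Long acyl chains enter mitochondria as carnitine esters, are shortened by acyl-CoA dehydrogenases, hydratases and thiolases, and in liver leave largely as ketone bodies.

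The signals were log2 values that the authors had normalized by quantiles, so 1 unit is a doubling. Levels were compared only within a gene, because probes differ in brightness. On the brighter probe set of Arsb, which checks the labels, the log2 signal was 7.63, 7.46 and 7.64 in ARSB-null livers and 10.21, 10.23 and 10.21 in control livers. Of 10 hepatocyte markers, 7 were named and 0 passed the test, and their mean log2 signal was 13.50 to 13.61 in ARSB-null livers and 13.44 to 13.54 in control livers. The 10 Kupffer cell and macrophage markers had a mean of 9.19 to 9.27 in ARSB-null and 9.06 to 9.41 in control livers. At an unadjusted p under 0.05, Cd68 and C1qa were higher without overlap (differences 0.53 and 0.39) and Adgre1 and Csf1r lower with overlap (-0.35 and -0.33), with adjusted p of 0.448 to 0.835. Of 6 adipocyte markers, 5 were named, with a mean of 7.26 to 7.28 in ARSB-null and 7.14 to 7.32 in control livers. Car3 raised this mean, at 13.78 in ARSB-null and 13.73 in control livers, while Adipoq stood at 4.37 and 4.48. The mean is therefore no measure of adipocyte content. Of 5 red blood cell markers, 2 were named, and their mean was 8.30 to 8.71 in ARSB-null livers and 9.42 to 9.85 in control livers, without overlap (smallest adjusted p = 0.224). In whole liver, fewer cells of a type and less RNA per cell cannot be told apart.

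The promoters of 25 of the 31 members were matched in RefSeq (GRCm38.p6), as windows from 250 bases before to 50 bases after the annotated start. The windows were searched on both strands for AGGTCA, any 1 base and AGGTCA again, the repeat bound by PPARA, allowing 2 mismatches. Vnn1, Angptl4, Crat, Acaa2, Decr1 and Hsd17b4 had no window and were not searched. A match was found in 4 of the 25 windows (16%), against 3.82% of 27018 windows of all genes with 1 window each. The windows of Fabp1, Slc25a20, Creb3l3 and Acot4 are shown, since they hold these inexact matches. The differences of their genes have both signs below, and none passed the threshold. Capitals mark the match, and each window is written 5′ to 3′ on the strand of the gene.
Fabp1: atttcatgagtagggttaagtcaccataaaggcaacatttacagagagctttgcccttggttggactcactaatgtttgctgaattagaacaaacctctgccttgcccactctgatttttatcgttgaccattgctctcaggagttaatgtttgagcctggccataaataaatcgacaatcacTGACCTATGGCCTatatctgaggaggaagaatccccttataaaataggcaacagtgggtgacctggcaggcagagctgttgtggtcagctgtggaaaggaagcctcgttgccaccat
Slc25a20: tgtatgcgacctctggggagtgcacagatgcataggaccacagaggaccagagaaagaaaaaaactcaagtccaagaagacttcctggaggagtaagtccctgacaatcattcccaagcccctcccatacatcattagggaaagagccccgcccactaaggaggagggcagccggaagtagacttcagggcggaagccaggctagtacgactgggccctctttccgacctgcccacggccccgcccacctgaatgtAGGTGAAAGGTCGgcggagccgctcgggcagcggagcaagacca
Creb3l3: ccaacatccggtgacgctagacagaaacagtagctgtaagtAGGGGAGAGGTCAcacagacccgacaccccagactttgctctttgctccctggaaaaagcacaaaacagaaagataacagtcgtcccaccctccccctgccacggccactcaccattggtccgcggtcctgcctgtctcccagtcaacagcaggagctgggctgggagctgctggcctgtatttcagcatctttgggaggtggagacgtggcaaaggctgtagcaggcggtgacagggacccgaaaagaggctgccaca
Acot4: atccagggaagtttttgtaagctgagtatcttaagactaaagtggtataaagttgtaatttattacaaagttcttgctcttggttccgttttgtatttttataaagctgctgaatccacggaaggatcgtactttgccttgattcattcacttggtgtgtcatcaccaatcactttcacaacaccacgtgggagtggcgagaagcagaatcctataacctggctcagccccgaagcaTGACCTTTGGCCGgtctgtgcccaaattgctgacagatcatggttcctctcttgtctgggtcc
The Fabp1 window (chr6:71199629-71199928, plus strand) held the closest match, with 1 mismatch, 67 to 55 bases before the start and on the opposite strand. The windows of Slc25a20 (chr9:108661886-108662185, plus strand), Creb3l3 (chr10:81092542-81092841, minus strand, the first of 2 windows listed) and Acot4 (chr12:84038129-84038428, plus strand) had 2 mismatches each. The Slc25a20 match lay after the start, by 6 to 18 bases. A match is a description of the letters and not of binding. The windows of Hadha (chr5:30154931-30155230, minus strand) and Hadhb (chr5:30155003-30155302, plus strand), which encode the subunits of the mitochondrial trifunctional protein, shared 228 bases and point in opposite directions.

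No member of the group passed the threshold between ARSB-null and control liver. By limma with Benjamini-Hochberg adjustment over all 35556 probe sets, 0 of 31 members were called at an adjusted p of 0.05, where 0.0197% of all probe sets were called, and the smallest adjusted p of a member was 0.721. By direction, 0.00562% of all probe sets were called higher in ARSB-null liver and 0.0141% lower. At an unadjusted p under 0.05, 1 member was higher and 2 were lower, 9.68% of the members against 5.94% of all probe sets (2.75% higher and 3.19% lower). The groups did not overlap for 4 members (12.9%), 2 higher and 2 lower, against 11.9% of all probe sets (5.14% higher and 6.78% lower). With so few members called, these shares are no result about the members. The mean was higher in ARSB-null liver for 16 members and lower for 15. Their median log2 difference was 0.009, with a range of -0.55 to 0.42, and the median over all probe sets was 0.001. The members' median had no settled sign, since it was -0.04 without control liver 4, -0.039 without ARSB-null liver 5 and 0.049 without ARSB-null liver 4.

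The intervals limit how large a difference could have gone unseen, as far as the spread between these samples goes. The 95% interval of the log2 difference lay inside -1 to 1, that is under a 2-fold change, for 30 of 31 members, and inside -0.5 to 0.5 for 21. Angptl4 was the exception, with an upper bound of 1.04. Of all 21789 probe sets with 1 symbol, the interval lay inside -1 to 1 for 21487 and inside -0.5 to 0.5 for 15714. The size of the difference was under 0.2 for 24 members, and the interval's median half-width was 0.306. The plot of differences by role shows members of the carnitine shuttle and of mitochondrial and peroxisomal oxidation on both sides of zero, and all 3 thioesterases above it.

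**Figure D1:**
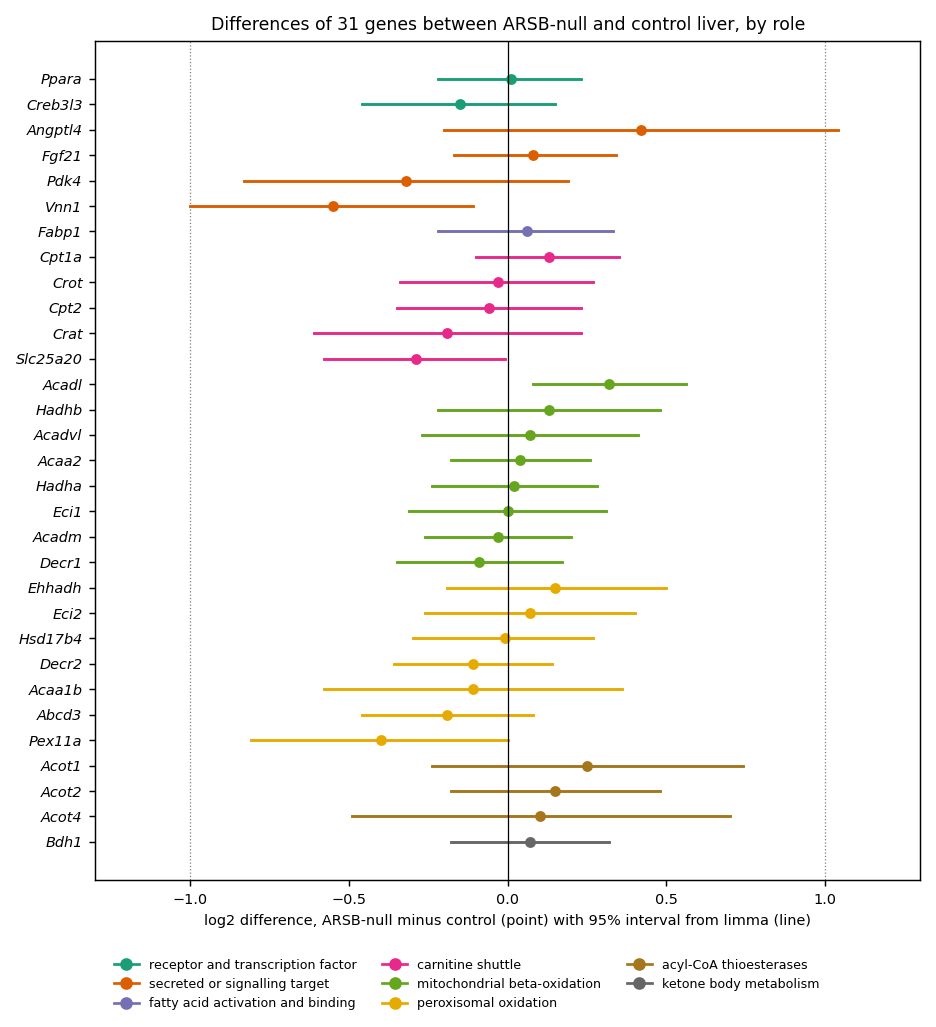
ARSB-null minus control log2 signal (horizontal axis) for the 31 named members (vertical axis), coloured by role; points are differences of means, lines are 95% intervals from limma (n = 3 livers each), and dotted lines mark a 2-fold change. The intervals of Acadl, Vnn1 and Slc25a20 lie off zero, and the interval of Angptl4 alone crosses a dotted line.

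The receptor itself did not separate the groups. The log2 signal of Ppara (probe set 10425987) was 11.21, 11.12 and 11.24 in ARSB-null livers and 11.13, 11.16 and 11.24 in control livers. The groups overlapped almost fully, and the difference was 0.01 (95% interval -0.22 to 0.23, adjusted p = 0.998). Its interval in linear terms was 0.861- to 1.18-fold. Creb3l3, a liver transcription factor anchored in the endoplasmic reticulum that acts with PPARA on shared targets, was 9.78, 10.12 and 9.84 in ARSB-null livers and 9.92, 10.17 and 10.10 in control livers. Each control liver lay above the ARSB-null liver of its number, although the groups overlapped (difference -0.15, standard error 0.13, adjusted p = 0.977). The difference was -0.26 without ARSB-null liver 5 and -0.09 without ARSB-null liver 4.

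The targets of PPARA outside the oxidation pathway went in both directions. Vnn1 (probe set 10362138), a pantetheinase that breaks down pantetheine and a well known PPARA target of liver, was 9.60, 10.14 and 10.08 in ARSB-null livers and 10.24, 10.53 and 10.71 in control livers. Every ARSB-null liver was below every control liver. The difference of -0.55 was the largest of any member (standard error 0.19, 95% interval -1.0 to -0.11, unadjusted p = 0.0218, adjusted p = 0.744), and it did not pass the threshold.

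Angptl4, a secreted inhibitor of lipoprotein lipase, was 9.93, 9.70 and 9.88 in ARSB-null livers and 8.79, 9.64 and 9.82 in control livers. Control liver 4 alone was far below the rest. The difference was 0.42 (standard error 0.26, adjusted p = 0.953) with it and 0.11 without it. Pdk4, the kinase that switches off pyruvate dehydrogenase in fasting, was 8.19, 8.88 and 8.26 in ARSB-null livers and 8.49, 8.93 and 8.86 in control livers. The ARSB-null liver 5 lay among the controls and the other ARSB-null livers below them (difference -0.32, standard error 0.21, adjusted p = 0.962), and the difference was -0.54 without ARSB-null liver 5 and -0.20 without ARSB-null liver 4. Fgf21, a fasting hormone secreted by the liver, was 5.99, 5.98 and 5.81 in ARSB-null livers and 5.82, 5.76 and 5.95 in control livers. It was the only member under the median signal of all probe sets, and its groups overlapped (difference 0.08, adjusted p = 0.992, and 0.04 to 0.14 without any 1 array).

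**Figure D2:**
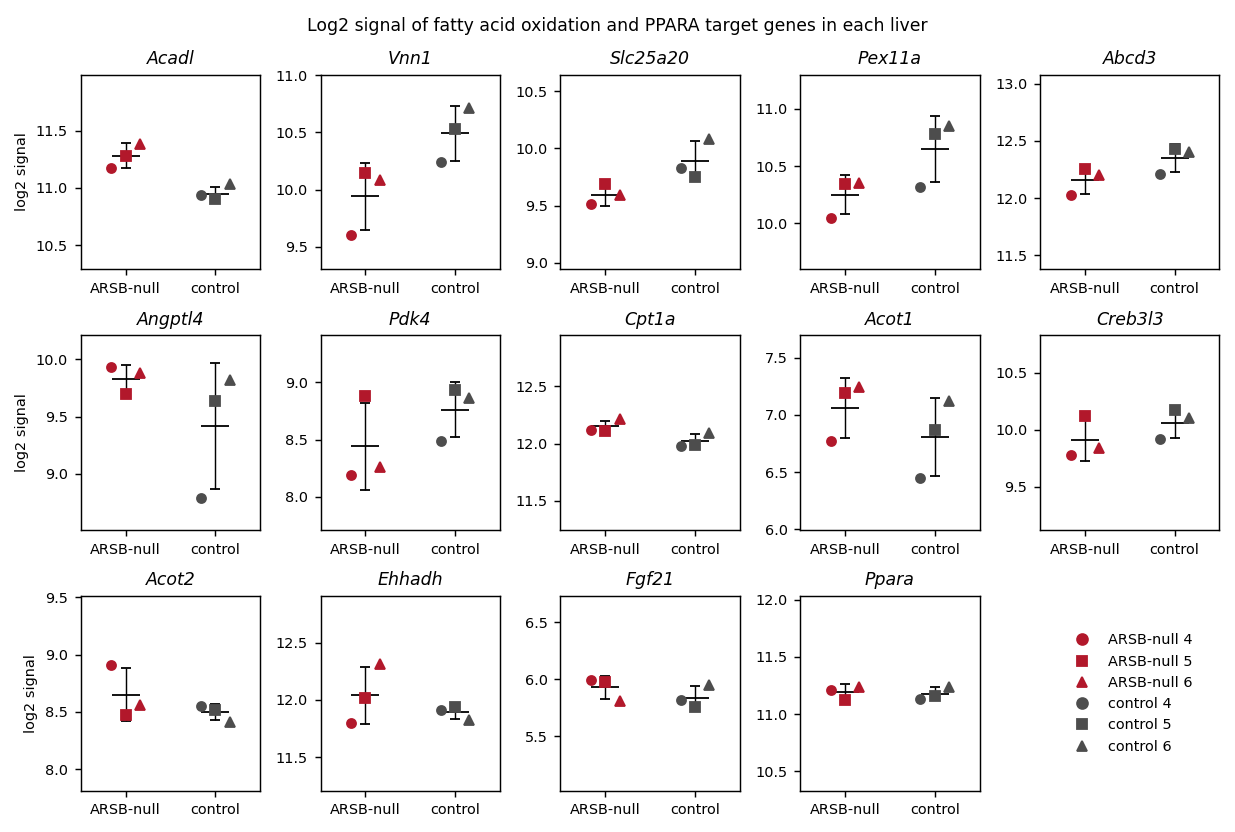
Log2 signal (vertical axis, a span of 1.7 in each panel) of 14 members in each ARSB-null liver (red) and control liver (grey), with marker shape giving the replicate number; horizontal lines show the mean and vertical ones the SD (n = 3). Acadl spans 11.17 to 11.38 in ARSB-null livers and 10.90 to 11.03 in control livers, while Ppara overlaps fully and Angptl4 is set apart by control liver 4.

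The carnitine shuttle carries acyl chains across the mitochondrial membranes. The differences of its entry enzyme and its inner membrane carrier had opposite signs, and neither passed the threshold. Cpt1a, the rate-limiting enzyme on the outer membrane, was 12.12, 12.11 and 12.21 in ARSB-null livers and 11.98, 11.99 and 12.09 in control livers. Its groups did not overlap, but the lowest ARSB-null and the highest control liver were nearly level (difference 0.13, 95% interval -0.10 to 0.35, adjusted p = 0.972). Slc25a20 (probe set 10589076), the carnitine-acylcarnitine carrier whose window holds a motif match above, was 9.51, 9.69 and 9.59 in ARSB-null livers and 9.83, 9.75 and 10.08 in control livers. All ARSB-null livers were lower (difference -0.29, standard error 0.12, unadjusted p = 0.046, adjusted p = 0.835). The groups were close, at 9.69 in the highest ARSB-null and 9.75 in the lowest control liver. Cpt2, Crat and Crot, the inner membrane, acetyl and peroxisomal carnitine transferases, had differences of -0.06, -0.19 and -0.03, with overlapping groups.

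Among the 8 members of mitochondrial beta-oxidation, 5 had a higher and 3 a lower mean. Acadl (probe set 10355246), the long-chain acyl-CoA dehydrogenase, was 11.17, 11.28 and 11.38 in ARSB-null livers and 10.94, 10.90 and 11.03 in control livers. Every ARSB-null liver was above every control liver. The difference was 0.32, 1.25-fold (standard error 0.10, 95% interval 0.08 to 0.56, unadjusted p = 0.017, adjusted p = 0.721), the smallest p of the group and not past the threshold.

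The other 7 lay within -0.09 and 0.13 with overlapping groups. Acadm and Acadvl, the medium-chain and very long-chain dehydrogenases, differed by -0.03 and 0.07. Hadha and Hadhb differed by 0.02 and 0.13, and the second probe set of Hadhb by 0.14. Acaa2, the thiolase, differed by 0.04, and Decr1 and Eci1, which handle double bonds, by -0.09 and 0.00. Fabp1, the liver fatty acid-binding protein with the closest motif match, differed by 0.06, and Bdh1, which makes beta-hydroxybutyrate, by 0.07.

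Of the 7 peroxisomal members, 5 had a lower and 2 a higher mean. Pex11a (probe set 10564805), which promotes peroxisome division, was 10.05, 10.34 and 10.35 in ARSB-null livers and 10.32, 10.78 and 10.85 in control livers. Each ARSB-null liver was below the control of its number, and the 2 upper ARSB-null livers were slightly above control liver 4 (difference -0.40, standard error 0.17, unadjusted p = 0.0505, adjusted p = 0.840). Without control liver 4 its difference was -0.57. Abcd3, the peroxisomal membrane transporter of acyl-CoA, was 12.03, 12.25 and 12.20 in ARSB-null livers and 12.21, 12.43 and 12.40 in control livers. Each ARSB-null liver was again below the control of its number, with overlapping groups (difference -0.19, standard error 0.11, adjusted p = 0.952), and without ARSB-null liver 4 the difference was -0.12.

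Ehhadh, the bifunctional enzyme and a classic target, was 11.80, 12.02 and 12.31 in ARSB-null livers and 11.91, 11.94 and 11.82 in control livers. The ARSB-null livers lay on both sides of the controls (difference 0.15, standard error 0.14, adjusted p = 0.985), and the difference was 0.02 without ARSB-null liver 6 and 0.28 without ARSB-null liver 4. Hsd17b4, Decr2, Eci2 and the thiolase Acaa1b lay between -0.11 and 0.07, with overlap.

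The acyl-CoA thioesterases release free fatty acids from CoA, Acot1 in the cytosol, Acot2 in mitochondria and Acot4 in peroxisomes. Acot1 was 6.77, 7.19 and 7.24 in ARSB-null livers and 6.45, 6.87 and 7.12 in control livers. It was higher in the ARSB-null liver of each number with overlapping groups (difference 0.25, standard error 0.21, adjusted p = 0.977), and the difference ran from 0.07 without control liver 4 to 0.41 without control liver 6. Acot2 was 8.91, 8.47 and 8.56 in ARSB-null livers and 8.55, 8.52 and 8.41 in control livers, where ARSB-null liver 4 stood above all the others. Its difference was 0.15 (standard error 0.14, adjusted p = 0.985), with 0.02 without that liver and 0.24 without ARSB-null liver 5. Acot4, with a motif match of 2 mismatches directly before its start, differed by 0.10, and control liver 5 lay below the rest at 7.37. The 3 genes are neighbouring paralogs on chromosome 12, and cross-hybridization between their probes was not tested.

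The median SD of a member within a group was 0.14 in ARSB-null and 0.13 in control livers, beside a median size of the difference between groups of 0.11. The livers numbered 4 were low in both groups, with a median deviation from each gene's own mean of -0.083 in ARSB-null liver 4 and -0.093 in control liver 4. The other livers stood at 0.091 and -0.030 in ARSB-null livers 5 and 6, and at 0.018 and 0.076 in control livers 5 and 6. Of 31 members, 23 had their lowest signal in a liver numbered 4 (74.2%), 12 in the ARSB-null and 11 in the control liver, against 37.7% of probe sets with 1 symbol.

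Bright probe sets shared this layout in part. Among the 2291 probe sets with 1 symbol and a mean log2 signal of 10 or more, a limit chosen after the values were seen, 61.1% were lowest in a liver numbered 4, against 77.3% of the 22 members as bright. The medians of these bright probe sets were -0.050 in ARSB-null liver 4 and -0.031 in control liver 4, and between -0.002 and 0.028 in the other 4 livers. Control liver 4 also held the highest signal for 23% of them, the largest share of any liver, against 9.09% of the members as bright. Over all probe sets with 1 symbol, control liver 4 was not low: its median deviation was 0.056, and 32.1% were highest there. What set the livers numbered 4 apart was not tested.

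**Figure D3:**
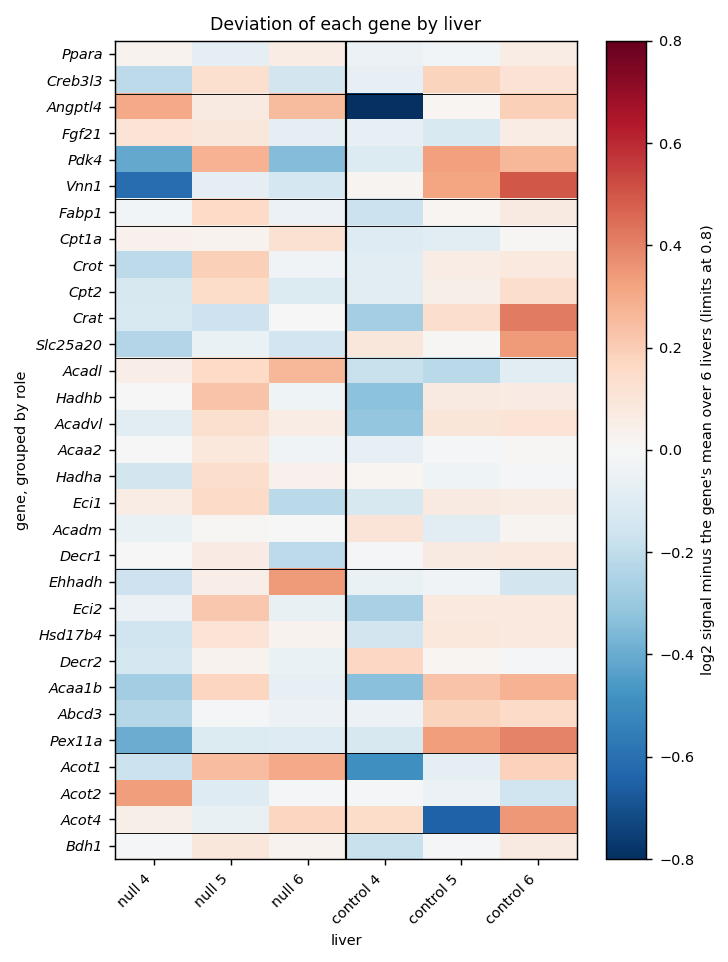
Deviation of the log2 signal from the gene's mean over all 6 livers (colour) for each of 31 members (rows, by role) in ARSB-null (left) and control livers (right), with the colour scale limited to 0.8 on either side. Blue runs down both columns numbered 4, where 23 of 31 members have their lowest signal. Vnn1, Pex11a, Slc25a20 and Abcd3 lie below their own mean in all the ARSB-null livers, Abcd3 at only -0.008 in liver 5. Pex11a and Abcd3 also lie below it in control liver 4.

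The direction between the groups depended on the numbered livers compared. Between the livers numbered 4, 17 members were higher in ARSB-null and 14 lower, and between those numbered 5, 20 were higher and 11 lower. Between those numbered 6, 7 were higher and 24 lower, with a median difference of -0.104. Of the probe sets with 1 symbol, 40.7%, 52.3% and 48% were higher in ARSB-null liver for the numbers 4, 5 and 6, against 54.8%, 64.5% and 22.6% of the members. In all 3 comparisons 4 members were higher in ARSB-null liver (Acadl, Cpt1a, Acot1 and Angptl4) and 6 were lower (Vnn1, Pex11a, Pdk4, Slc25a20, Abcd3 and Creb3l3). These were 12.9% and 19.4% of members, against 14.4% and 19.7% of probe sets with 1 symbol. With the replicate number as a block, 0 members passed the threshold, and the smallest adjusted p was 0.353, for Vnn1.

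Other genes of fatty acid handling were read from 6 further lists with 89 genes, of which 82 were named. By limma, 0 of the 82 passed the threshold, where 0.0197% of all probe sets did. At an unadjusted p under 0.05, 2 were higher and 7 lower, 11% against 5.94% of all probe sets, and the groups of 15 did not overlap (18.3% against 11.9% of all probe sets). Their median log2 difference was -0.012.

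In the lipid droplet list, 4 of 14 genes (28.6%) had an unadjusted p under 0.05, all lower. Over all probe sets the share was 5.94% in either direction and 3.19% lower. The groups did not overlap for 5 genes (35.7%), all lower, against 11.9% of all probe sets (6.78% lower). The list was chosen with earlier results of these data known, so these shares are no result about the list. The droplet genes control how triglyceride is stored and released before it is oxidized. Fitm1, a membrane protein that partitions fat into droplets, was 10.09, 10.10 and 9.77 in ARSB-null livers and 10.54, 10.90 and 11.09 in control livers. The groups were well apart, and the difference of -0.86 was larger than that of any member of the main group (standard error 0.17, unadjusted p = 0.00158, adjusted p = 0.378). When only probe sets with 1 symbol were tested, its adjusted p was 0.0847.

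Mgll, the monoacylglycerol lipase, was 9.68, 9.55 and 9.73 in ARSB-null livers and 9.94, 10.12 and 10.17 in control livers (difference -0.42, adjusted p = 0.563). Abhd5, the activator of adipose triglyceride lipase, was 9.41, 9.62 and 9.34 in ARSB-null livers and 9.80, 9.81 and 9.76 in control livers (difference -0.33, adjusted p = 0.731). All ARSB-null livers were lower for both genes. G0s2, the inhibitor of the same lipase, also had the lower mean in ARSB-null liver (difference -0.47, adjusted p = 0.796), and its groups nearly touched, at 7.92 in the highest ARSB-null and 7.93 in the lowest control liver. The lipase itself, Pnpla2, differed by -0.03, and Plin2, the droplet coat protein, by -0.01. The adipocyte markers overlapped between the groups, and the red blood cell markers were lower in ARSB-null liver without overlap, as given above; their part in these differences was not tested.

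**Figure D4:**
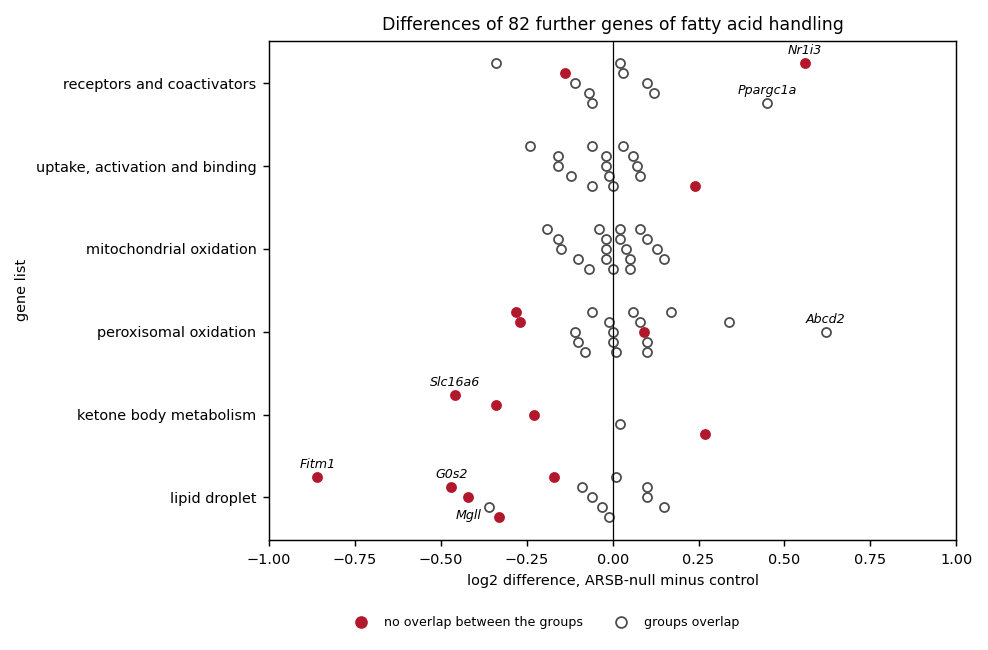
ARSB-null minus control log2 signal (horizontal axis) for 82 further genes in 6 lists (vertical axis, points spread for legibility); filled red points are genes whose groups do not overlap, and names are given from a difference of 0.4 in size. Most points lie near zero. In the lipid droplet list 5 of 14 points are filled (35.7%), against 11.9% of all probe sets, and 4 of these 5 lie between -0.86 and -0.33.

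Of the ketone body list, 5 of 7 genes were named. Of these, 2 had an unadjusted p under 0.05, 1 higher and 1 lower, against 5.94% of all probe sets. The groups did not overlap for 4, 1 higher and 3 lower, against 11.9% of all probe sets. With so few genes named, these counts are no result about the list. Slc16a6, a monocarboxylate transporter that exports ketone bodies from the liver in zebrafish, was 6.94, 6.97 and 7.34 in ARSB-null livers and 7.67, 7.56 and 7.39 in control livers. Its ARSB-null livers were all lower (difference -0.46, adjusted p = 0.709). Oxct1, the enzyme of ketone body use, differed by 0.27 (adjusted p = 0.820) and Bdh2 by -0.34 (adjusted p = 0.846), each without overlap.

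Among receptors and coactivators, Nr1i3, the xenobiotic receptor CAR, was 9.98, 9.97 and 10.77 in ARSB-null livers and 9.52, 9.76 and 9.75 in control livers, higher without overlap (difference 0.56, adjusted p = 0.827). Ppargc1a, a coactivator of PPARA in fasting, was 8.86, 9.02 and 9.43 in ARSB-null livers and 8.35, 8.73 and 8.88 in control livers. It was higher in the ARSB-null liver of each number with slight overlap (difference 0.45, adjusted p = 0.843). Its dimmer probe set differed by 0.62 without overlap (adjusted p = 0.843). Ppard, the related receptor, differed by -0.34 (adjusted p = 0.856).

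Of peroxisomal oxidation, Pex19, which delivers membrane proteins to peroxisomes, differed by -0.27 (adjusted p = 0.821), without overlap. The thioesterase Acot5 differed by -0.28 (adjusted p = 0.835), also without overlap. Its signal was low, with means of 4.12 in ARSB-null and 4.41 in control livers, under the array medians. Abcd2, a transporter of very long acyl chains, was 9.57, 10.26 and 10.18 in ARSB-null livers and 10.01, 9.16 and 9.00 in control livers. The livers numbered 4 ran against the others (difference 0.62, adjusted p = 0.884). The 19 named genes of the mitochondrial oxidation list lay between -0.19 and 0.15, with 0 at an unadjusted p under 0.05. Those with the smallest p were Acad9 (-0.19), Ivd (0.15) and Mcee (-0.15). Of fatty acid uptake, activation and binding, Fabp4 (0.24), Slc22a5 (-0.24) and Slc27a4 (-0.16) had the smallest p, with adjusted p of 0.860 to 0.962.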

How the data were processed

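RNA from 3 liver samples of ARSB-null mice and 3 of control mice was labeled with biotin and hybridized by the authors to Affymetrix mouse gene arrays. The deposited log2 signals, 1 per probe set and array, had been normalized by quantiles and summarized by the authors (RMA and Partek per the labels, without versions), and the array medians were 6.50 to 6.60. No detection calls were given, so signal over background is not known, and the number of arrays limits the precision. The methods name a second-generation array, but the probe set identifiers match the platform annotation of the first generation, which was used here. It gave 1 symbol to 21789 of 35556 probe sets, several to 1621, and did not list 12146; symbols were checked by gene identifier against RefSeq (0 changed).

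All 35556 probe sets were compared by limma 3.58.1 in R 4.3.3 (lmFit, eBayes, two-sided, Benjamini-Hochberg adjustment over all probe sets, threshold 0.05), and a gene with several probe sets was read from the brightest. The procedure was run on simulated arrays with independent noise and no effect shared by arrays of the same number. That run does not tell how small a difference would be called in these data. The methods name an analysis of variance, which was run as an alternative, with the replicate block, repeated normalization, median centring, other sets of probe sets, array weights, another prior and the omission of arrays. The members, lists and tests were chosen with earlier results of these data known. Signals are given for the receptor and best known targets, for members with an unadjusted p under 0.05 and for the 12 with the smallest p; of the further lists, the 3 genes with the smallest p are named. Any other gene was named after its values were seen.

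Same-numbered livers deviated together over all probe sets (correlation of deviations from the group means 0.396, 0.159 and 0.193 for numbers 4, 5 and 6, all above the limit of 0.1), although ARSB-null liver 6 and control liver 5, with different numbers, correlated at 0.22. By that limit the numbers were taken as pairs and fitted as a block in an alternative. What a number stands for is not given in the sources used here. Nor do the labels state that each sample is a separate mouse, and p-values then measure only the spread between these samples, which may be technical. The labels and the methods name different agents for euthanasia.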

Additional observations from a re-analysis of the deposited data

How the results depend on the processing

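No member and no gene of the further lists passed the threshold under any alternative with adjusted p, with the smallest adjusted p of a member 0.23 (Vnn1, array weights) and of a further gene 0.0733 (Fitm1, array weights). At an unadjusted p under 0.05, 1 member was higher and 2 lower, 2 further genes were higher and 7 lower, and 978 probe sets were higher and 1134 lower. Over all probe sets, against 2 higher and 5 lower, there were 1 and 3 with the replicate block, 27 and 33 when only probe sets with 1 symbol were tested, 1 and 1 by the one-way ANOVA, 14 and 14 with array weights, and 1 and 0 with both arrays numbered 4 left out. Centring on array medians gave 1 higher, and the brighter probe sets alone gave 5 higher. Without any single array there was 1 higher, and 3 to 6 were lower. Fewer probe sets or arrays are tested in some of these by construction; otherwise the cause was not tested. Of 237 values of the 14 members given by liver, 234 stayed on their side of the threshold, 3 passed only without adjustment, and 7, all of Ppara near zero, changed sign. The members' median difference of 0.009 also changed sign, to -0.023 with centring on array medians, -0.022 with array weights, -0.039 without ARSB-null liver 5 and -0.04 without control liver 4. With the replicate block, no call of a member or further gene changed. Fgf21 could not be tested among the brighter probe sets, being below their limit. The range without any 1 array was -0.68 to -0.39 for Vnn1, 0.27 to 0.37 for Acadl, -0.36 to -0.20 for Slc25a20 and -0.57 to -0.30 for Pex11a.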
